A study of Mus musculus with 6 samples.

Results

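The values described here are the differences between 2 arrays of mouse embryonic fibroblasts on their way through a Tet3 treatment, the array labelled 7 dpi minus that of 5 dpi. Every feature of the array that was well above background on at least 1 of these 2 arrays was kept, which left 33593 of 39429 features (85.2%) and 18356 of 20655 named genes. The study profiled 6 samples on 1 single-colour Agilent array each. Tet3-treated fibroblasts at 7, 5, 3 and 1 dpi came with primary embryonic neurons and untreated fibroblasts (MEF), and all 6 samples were labelled E13.5. The fibroblasts were taken from ICR embryos and treated on 2 successive days with adenoviral supernatants and polybrene, followed by a low-glucose medium with serum. On days 3 and 5 after the second infection, part of that medium was replaced by neuronal medium with 20 µM forskolin, which activates adenylyl cyclase and so raises cAMP. The step from 5 to 7 dpi therefore spans the second replacement by protocol, and the sources used here do not say whether the 5 dpi cells were taken before or after it. No array came from fibroblasts given a virus without Tet3, so time, medium, infection and Tet3 cannot be told apart in this step.

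Tet3 is a dioxygenase that oxidises 5-methylcytosine in DNA, which is known to open a path to demethylation, and it is abundant in neurons. Fibroblasts turned towards neurons in culture are known to lose contractile and proliferative programmes and to gain neuronal cytoskeleton, secretory granule and synaptic genes. Many of the neuronal genes are held silent in fibroblasts by the repressor REST. Forskolin acts through cAMP and the factor CREB, and several granule and peptide genes are textbook CREB targets.

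Tet3 signal was read first on every array, since the labels name Tet3. The brightest of its 3 probes (NM_183138) had levels of -0.22 in MEF, 1.13 at 1 dpi, 1.74 at 3 dpi, 2.57 at 5 dpi and 0.07 at 7 dpi by label, with -0.72 in neurons. Levels here and below are log2 values with the 75th percentile of each array at 0. It was 5.65-fold lower on the array labelled 7 dpi than at 5 dpi, and near its MEF level. A dimmer probe was not well above background at 7 dpi, in MEF or in neurons, but was well above it at 5 dpi with a level of 0.26, so it was at least 80.4-fold lower at 7 dpi. The remaining probe had levels of -2.78 at 7 dpi and -2.84 at 5 dpi, a difference of 0.05. Where each probe lies relative to the introduced sequence was not analysed here. Tet3 signal near that of MEF leaves the label of this array unchecked. Whether the label, the vector or the culture lies behind this signal was not tested. The array is therefore called the array labelled 7 dpi, also where only 7 dpi is written, and every direction below is drawn from that label. Of the related enzymes, the brighter Tet1 probe was at -0.27 at 7 dpi and 0.62 at 5 dpi, while the dimmer Tet1 probe was higher by 0.51 at 7 dpi. The Tet2 probes differed by 0.09 and -0.05. Of 20 genes of active demethylation, the TET genes included, Tet3 was the only one past 2-fold. That is 5.0% lower, near the 4.65% of all genes with a difference. Among 14 genes of DNA methylation with a difference, Dnmt3a, a de novo methyltransferase, was the only one past 2-fold. It was at 1.40 at 7 dpi and -0.29 at 5 dpi. That is 7.143% higher, near the 5.94% of all genes with a difference.

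With 1 array a group there was no replicate and no test of any difference, which limits the precision of all values. A gene was called where the 2 arrays differed at least 2-fold. The median error of a difference by the scanner software's error model was 0.20 on the log2 scale, and it covers the array only, not the spread between cultures. Both arrays were read in the same scan. The share of features well above background was 77.72% at 7 dpi and 84.33% at 5 dpi, and the lowest level well above background was -6.07 at 7 dpi and -6.76 at 5 dpi. Dim genes therefore had less room to be seen as present at 7 dpi, and 157 genes were well above background at 7 dpi only, against 1170 at 5 dpi only. Such a gene has a bound in place of a difference, and "at least" marks it below. The bound holds for the values as reported and can be smaller with another background correction. In mixed cultures like these, fewer cells of a type and less RNA per cell cannot be told apart.

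Of 17845 genes with a measured difference or a bound, 1060 (5.94%) were higher at 7 dpi by 2-fold or more and 830 (4.65%) were lower by as much, and 15955 lay within 2-fold. Counted over 32229 features with a difference, 1670 (5.18%) passed 2-fold upward and 1381 (4.28%) downward. At 4-fold the gene counts were 306 higher (1.71%) and 143 lower (0.801%). The median over all genes was -0.01. Differences were most frequent among dim genes: when genes were cut into 5 equal bins by mean level, 353 were higher and 281 lower in the dimmest bin, while 85 were higher and 85 lower in the brightest. Of 373 called genes with differences from several probes, 306 had all probes in 1 direction and 162 had all probes past 2-fold.

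**Figure D1:**
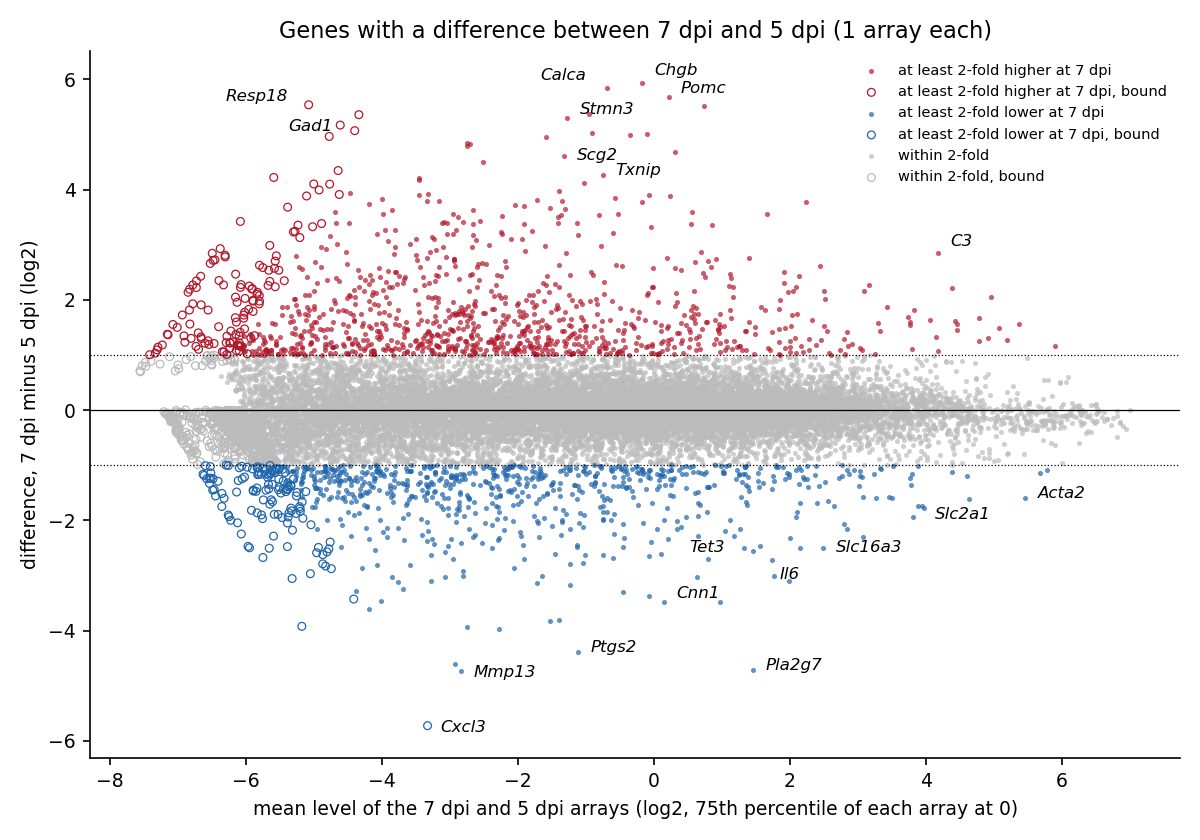
Difference between the array labelled 7 dpi and that of 5 dpi (y axis, log2) against the mean level of both (x axis, log2 with the 75th percentile of each array at 0), for each gene with a difference; open points are bounds and dotted lines mark 2-fold. Called genes lie at all levels, with Chgb, Calca and Pomc among those furthest above 0 and Cxcl3, Mmp13 and Pla2g7 among those furthest below.

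Called genes differed more often between primary neurons and MEF than all genes did, in both directions. Of 789 genes higher at 7 dpi and measured in both, 413 (52.3%) exceeded MEF at least 2-fold on the neuron array and 185 (23.45%) were at least 2-fold lower there. Of 686 genes lower at 7 dpi, 267 (38.9%) were higher in neurons and 187 (27.26%) lower. Over all 16308 genes measured in both, the shares were 25.99% and 17.11%. The neuron array and the MEF array come from different scans, so these shares are a description. List counts below are over members with a difference. Between 5 and 8 members with a probe had no difference, through the background filter or a bound under 1-fold, in voltage-gated channels (51 of 59 left), neuronal transcription factors (59 of 66), striated muscle (70 of 77), Wnt genes (54 of 60), inflammatory genes (51 of 56), matrix proteases (41 of 46) and endothelial genes (13 of 18). With normexp background correction, 378 of 417 called genes checked lay nearer 0 and 99 fell under 2-fold, and their median size was 1.36 with it and 1.67 as reported. Bounded genes moved as well, from 5.36 to 3.18 for Fstl5, from 5.17 to 3.24 for Akr1c19 and from -5.73 to -3.85 for Cxcl3.

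**Figure D2:**
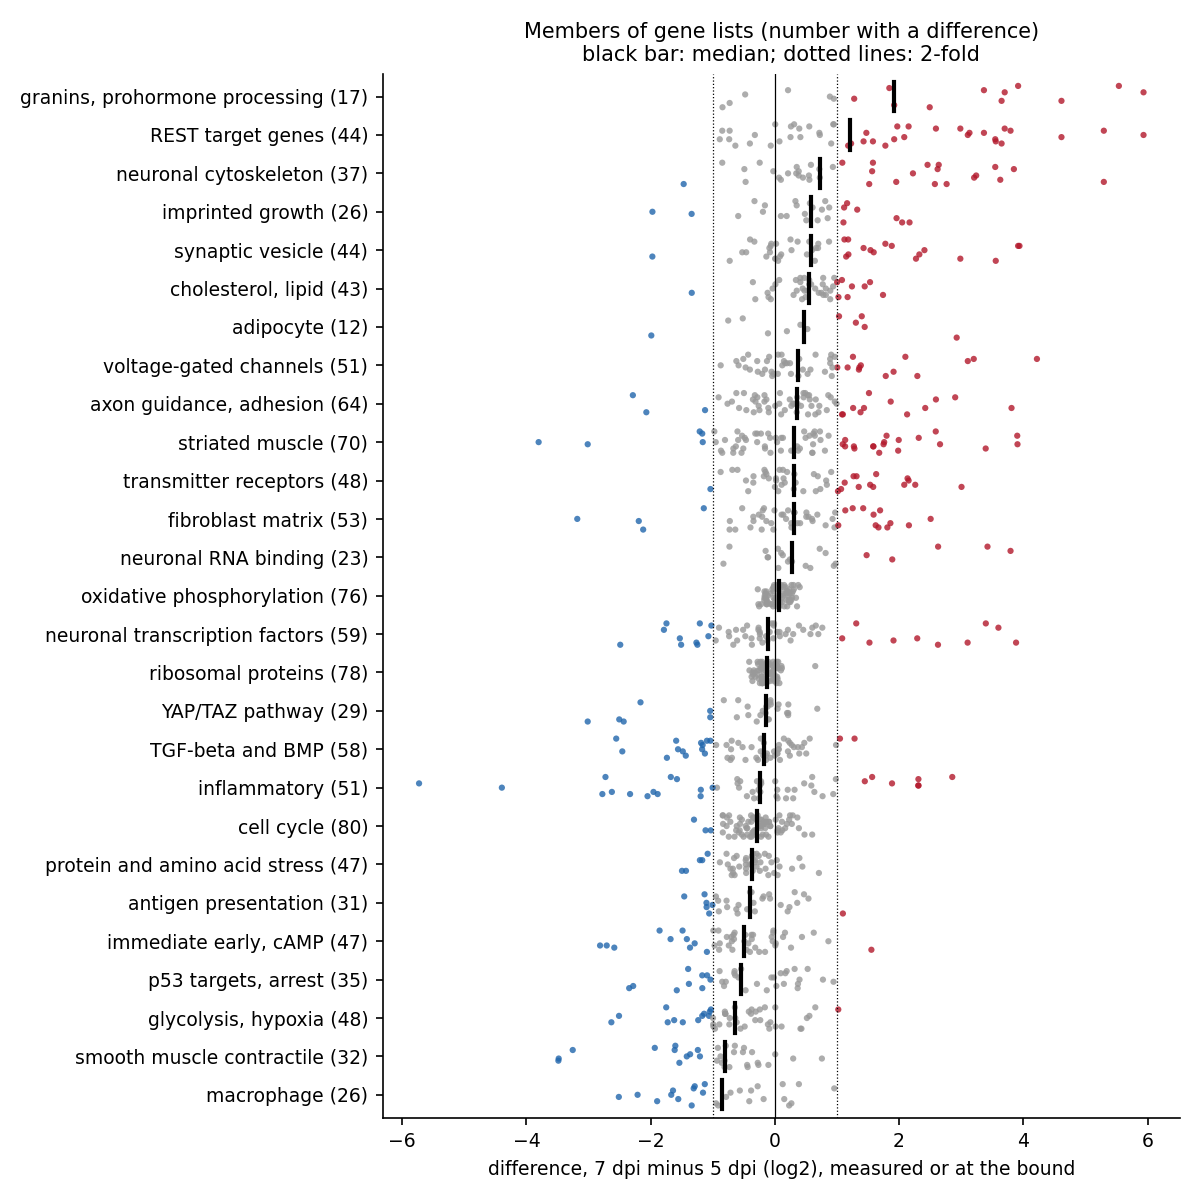
Difference at 7 dpi over 5 dpi (x axis, log2) for each member of 27 gene lists with a difference, as points (red at least 2-fold higher, blue at least 2-fold lower), with the median of each list as a black bar. Lists are in the order of their medians: granule genes with 1.92 are at the top, ribosomal and oxidative phosphorylation genes cluster around 0, and contractile and macrophage genes with -0.81 and -0.85 are at the bottom.

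Genes of the regulated secretory pathway had the median furthest from 0 of the 49 lists. Of 17 granin and prohormone processing genes, all with a difference, 11 were at least 2-fold higher and none was at least 2-fold lower, and their median was 1.92 against -0.01 for all genes. Chgb, a granin that drives cargo into dense-core granules, had levels of -6.32 in MEF, -6.18 at 1 dpi (not well above background), -6.05 at 3 dpi, -3.14 at 5 dpi, 2.79 at 7 dpi and 1.45 in neurons. It was 61.2-fold higher at 7 dpi than at 5 dpi, and a spot of it carried an outlier mark. Scg2, the secretogranin from which secretoneurin is cut, was at -1.28 in MEF, -1.94 at 1 dpi, -5.14 at 3 dpi, -3.62 at 5 dpi, 0.99 at 7 dpi and 1.37 in neurons. It was 24.5-fold higher at 7 dpi than at 5 dpi, and lower at 3 and 5 dpi than in MEF. Resp18, an endocrine granule protein, was not well above background in MEF or at 1, 3 and 5 dpi and was at least 46.5-fold higher at 7 dpi. The differences of Chga, Scg3, Vgf and Scg5, all granule proteins, lay between 2.49 and 3.70. Cpe, Ptprn and Ptprn2 lay below 0, at -0.84, -0.73 and -0.48, though another probe of Ptprn2 was at 1.36. Of these, Cpe had the highest level of the list at 5 dpi, 3.84, and was at 3.00 at 7 dpi. The prohormone convertases Pcsk1 and Pcsk2, which cut precursors within granules, were higher by 1.92 and 1.84. On the array labelled 7 dpi, the levels of Vgf, Chga and Scg2 lay within 2-fold of the neuron array and that of Chgb lay above it. Others lay below it, with Scg3 at -0.05 at 7 dpi and 4.36 in neurons and Scg5 at 1.98 at 7 dpi and 3.46 in neurons.

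The promoters of Chgb and Scg2 are shown because these genes share a palindromic cAMP response element, TGACGTCA, at nearly the same distance from the start of transcription. The windows are RefSeq promoters of build GRCm38.p6, from 250 bases before to 50 bases after the start, 5′ to 3′ on the strand of the gene, with the element in capitals. Chgb lies on the plus strand (chr2:132781392-132781691), where the element begins 72 bases before the start. Scg2 lies on the minus strand (chr1:79439977-79440276), where it begins 68 bases before the start.
Chgb: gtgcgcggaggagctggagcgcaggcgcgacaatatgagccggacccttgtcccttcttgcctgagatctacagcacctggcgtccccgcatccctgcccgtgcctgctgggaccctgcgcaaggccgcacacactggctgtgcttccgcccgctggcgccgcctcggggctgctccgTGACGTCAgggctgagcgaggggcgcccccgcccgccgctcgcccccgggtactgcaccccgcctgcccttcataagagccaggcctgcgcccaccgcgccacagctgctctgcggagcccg
Scg2: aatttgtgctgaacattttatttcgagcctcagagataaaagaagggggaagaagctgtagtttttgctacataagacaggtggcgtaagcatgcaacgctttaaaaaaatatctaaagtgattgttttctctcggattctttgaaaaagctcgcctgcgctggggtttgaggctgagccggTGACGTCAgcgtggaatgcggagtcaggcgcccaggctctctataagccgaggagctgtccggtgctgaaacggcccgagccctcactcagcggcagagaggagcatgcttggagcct
Searched on both strands, which read alike, this element was found in 1.79% of all 32851 promoters and in 2.99% of the 14134 genes with both a difference and a promoter. It was in 2.57% of the genes at least 2-fold higher and in 2.08% of those at least 2-fold lower, so over all called genes it was no more frequent than in the background. Of 15 granule genes with a promoter, 3 held it, Chgb, Scg2 and Pcsk1. A match is a description of the letters only.

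Neuropeptide genes went both ways. Of 27 with a difference, 8 were higher and 3 lower, with a median of -0.14 and a mean of 0.55. Pomc, the precursor of ACTH and beta-endorphin, was at -4.00 in MEF, -3.40 at 1 dpi, -3.18 at 3 dpi, -2.62 at 5 dpi, 3.05 at 7 dpi and -1.99 in neurons. It was 51.0-fold higher at 7 dpi than at 5 dpi, and its level at 7 dpi lay above that of every other array. Calca, the gene of calcitonin and CGRP, was at 2.23 at 7 dpi, against -3.61 at 5 dpi, and was 57.4-fold higher, while its other probe was higher by 1.90 on the log2 scale. Gal (galanin) was at 3.75 at 7 dpi and 1.15 at 5 dpi. Cartpt and Adcyap1, the precursors of CART and PACAP, were higher by 2.96 and 2.58. Cck, the cholecystokinin precursor, was in the other direction, at 1.92 at 7 dpi and 4.23 at 5 dpi. Vip, a further peptide known as a cAMP-responsive gene, had a difference of -2.91. Pomc, Calca and Gal had 7 dpi levels above those of the neuron array, whose levels were -1.99, -3.33 and -0.58.

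Neuronal cytoskeleton and axonal transport genes were higher as a group. Of 37 members, 17 were at least 2-fold higher and 1 was lower, and their median was 0.73. Stmn3, a microtubule regulator of neurons, was not well above background in MEF and then had levels of -5.61 at 1 dpi, -4.75 at 3 dpi, -3.92 at 5 dpi, 1.37 at 7 dpi and 4.28 in neurons. It was 39.3-fold higher at 7 dpi than at 5 dpi. Stmn2, its relative in growth cones, was at 1.25 at 7 dpi and -2.30 at 5 dpi. Dcx, the microtubule protein of migrating young neurons, was at -0.17 at 7 dpi and -3.41 at 5 dpi. All 3 of its probes were higher, the smallest difference being 1.90. Mapt (tau) and Map2, the microtubule-binding proteins of axons and dendrites, were higher by 2.64 and 1.96, also with all of their probes in 1 direction. Kif5c, a kinesin heavy chain, was higher by 2.77, while the 2 probes of its relative Kif5a disagreed, at 3.85 and -0.28, and a spot of the first carried an outlier mark. Tubb3, the beta-tubulin widely used as a neuron marker, was higher by 0.73 and so stayed within 2-fold. Of the neurofilament genes, Nefh was 2.99-fold higher, Nefm and Nefl were within 2-fold, and Prph (peripherin) was lower, at 0.67 at 7 dpi and 2.14 at 5 dpi. At 7 dpi, Stmn3, Stmn2, Dcx, Mapt, Map2, Kif5c, Tubb3 and Nefl lay below their levels on the neuron array, whereas Nefh, Nefm and Prph lay above them.

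Synaptic vesicle and release genes were higher less uniformly. Of 44 with a difference, 16 were higher and 1 lower, with a median of 0.58. Sv2a, a vesicle glycoprotein, was at -2.50 at 7 dpi and -6.44 at 5 dpi. Cplx1 (complexin), which clamps and promotes vesicle fusion, was at -1.18 at 7 dpi and -4.73 at 5 dpi. Syt1, the calcium sensor of release, was at -0.20 at 7 dpi and -2.08 at 5 dpi, and the synapsins Syn1 and Syn2 were higher by 1.78 and 2.27. Snap25, the membrane SNARE of release, differed by 0.01 and was highest of the Tet3 arrays at 3 dpi with 3.50. Sncg (gamma-synuclein) was the member that was lower, at -1.97.

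**Figure D3:**
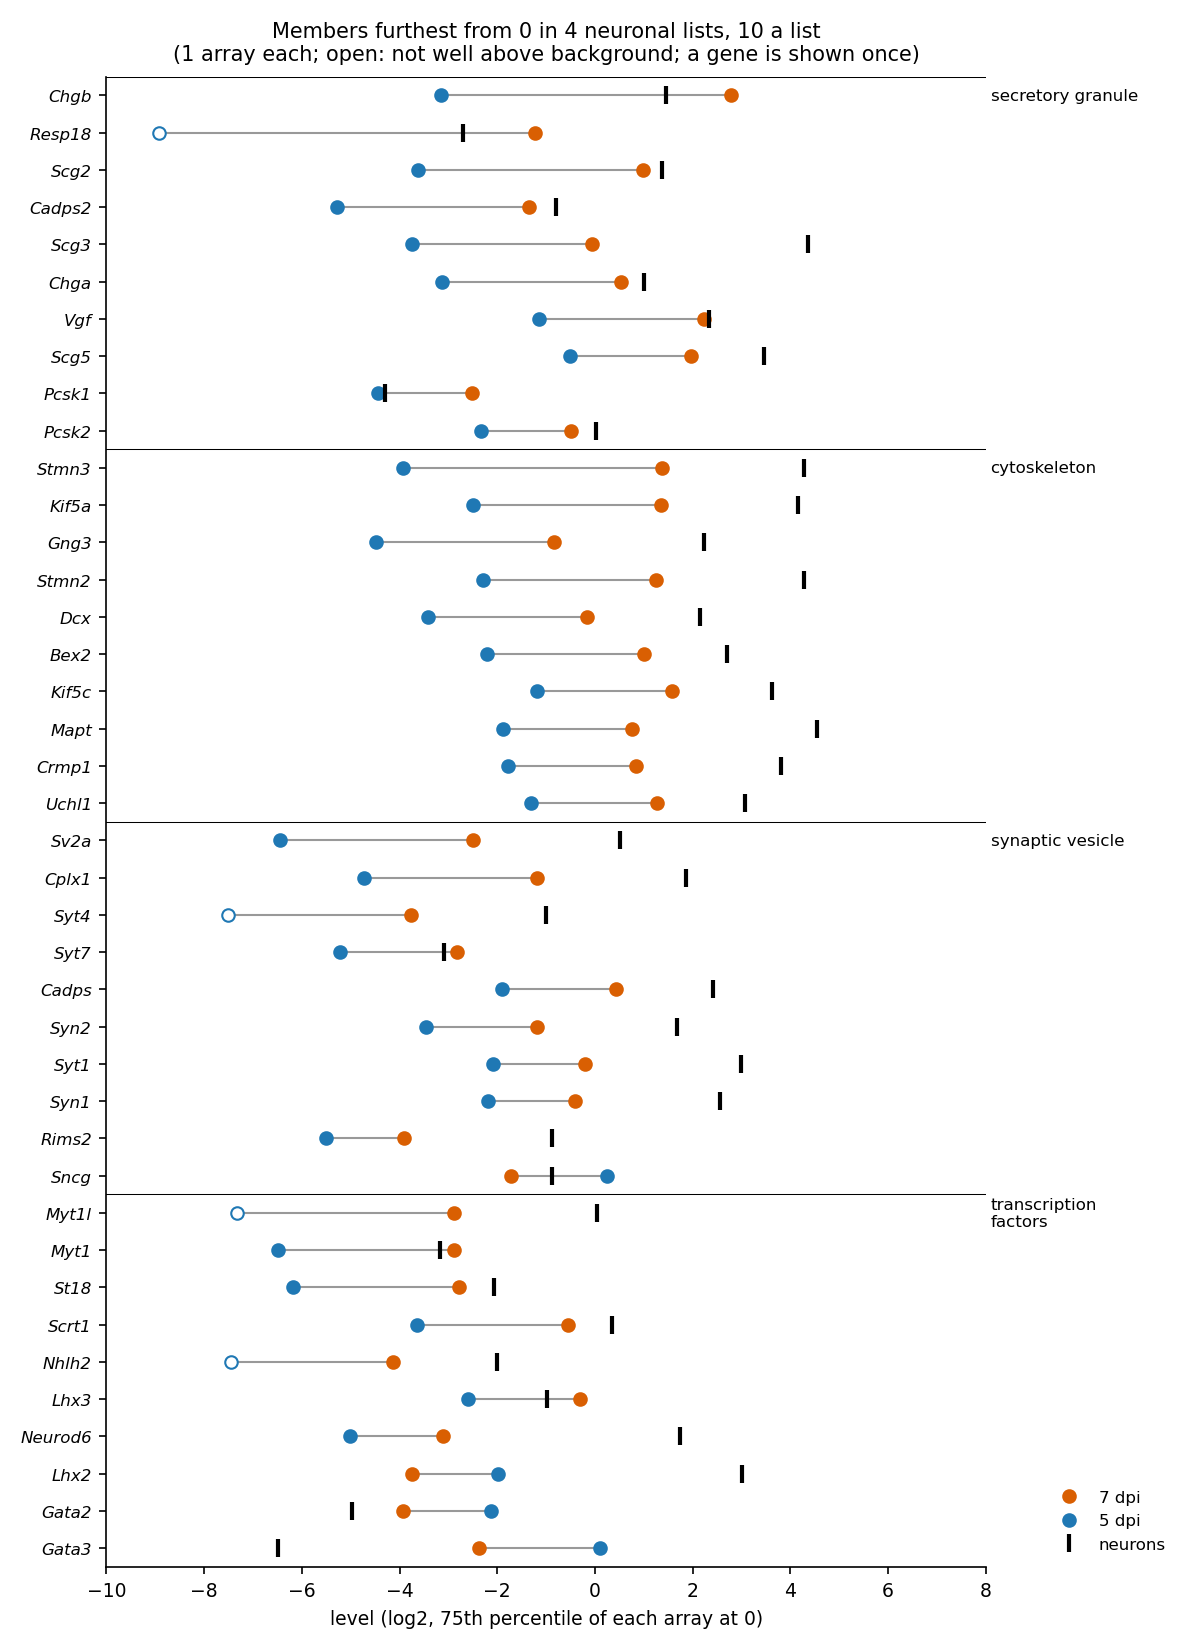
Levels (x axis, log2 with the 75th percentile of each array at 0) of the members furthest from 0 in the granule, cytoskeleton, synaptic vesicle and transcription factor lists, at 7 dpi (orange), at 5 dpi (blue) and on the neuron array (black tick, drawn whether or not above background); open points are not well above background. All granule and cytoskeleton genes drawn have 7 dpi to the right of 5 dpi, and most cytoskeleton and vesicle genes lie left of the neuron tick, as with Stmn3 at 1.37 and 4.28.

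Channel and receptor genes were more often higher than lower. Of 51 voltage-gated channel genes with a difference, 13 were higher and none lower, with a median of 0.38. Kcnc1, a fast potassium channel, was at -1.35 at 7 dpi and -4.55 at 5 dpi, and Scn3a, a sodium channel of embryonic brain, was at -1.94 at 7 dpi and -5.04 at 5 dpi. Of 48 transmitter receptor genes, 14 were higher and 1 lower, with a median of 0.31. Chrnb2, a neuronal nicotinic subunit, was higher by 2.15. Gria2, an AMPA receptor subunit, was higher by 1.07 but at a level of -5.47 at 7 dpi, close to the lowest level well above background.

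Of 23 transmitter identity genes with a difference, 5 were higher (21.74%) and 1 lower (4.348%), with a median of 0.11. Gad1, which makes GABA from glutamate, was not well above background in MEF or at 1, 3 and 5 dpi and had a level of -1.69 at 7 dpi and 1.62 in neurons. It was at least 33.6-fold higher at 7 dpi as reported, and its difference was 2.96 with normexp, beside a reported bound of 5.07. Its relative Gad2 was at -4.71 at 7 dpi and -5.64 at 5 dpi, within 2-fold. Slc17a6, a vesicular glutamate transporter, was higher by 1.47 and Slc5a7, the choline transporter, by 1.07, so members of more than 1 transmitter class were higher. Dbh, which makes noradrenaline, was lower, at -3.20 at 7 dpi and -2.06 at 5 dpi. Slc17a6, Slc5a7 and Dbh lay within 2-fold with normexp, at 0.93, 0.75 and -0.93.

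Genes known as REST targets are a list drawn from several of the neuronal groups above, so its count is not independent of theirs. Of 44 with a difference, 23 were higher and none at least 2-fold lower, with a median of 1.21. Rest itself had levels of -0.09 in MEF, 0.02 at 1 dpi, 0.25 at 3 dpi, 0.37 at 5 dpi, -0.30 at 7 dpi and -0.75 in neurons. It was 1.59-fold lower at 7 dpi than at 5 dpi, within the 2-fold limit, and its 2 probes differed by -0.67 and -0.46. Of 15 genes of the REST complex, 1 was at least 2-fold higher (6.667%, near the 5.94% of all genes) and none lower. This was Btrc, a ubiquitin ligase subunit known to mark REST for degradation, which was higher by 1.04. Its other probe was at 0.43, and with normexp Btrc lay within 2-fold at 0.98. The letters CAGCACC, the left part of the RE1 element that REST binds, were in 9 of 31 listed targets with a promoter, searched on both strands, against 8.82% of genes with a difference and 7.14% of all promoters. These letters were in 74 of 779 genes at least 2-fold higher and in 56 of 624 genes at least 2-fold lower. They were also found in the windows of Chgb and Scg2, where they do not overlap the cAMP response element.

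Neuronal transcription factors were split. Of 59 with a difference, 10 were higher and 10 lower, with a median of -0.12 and a mean of 0.10. Those higher included the zinc finger factors Myt1 and St18, at 3.60 and 3.40, and Myt1l, a neuronal repressor of other lineages' genes, which was at least 14.8-fold higher. Scrt1, a neuronal repressor, was at -0.55 at 7 dpi and -3.65 at 5 dpi, and Insm1, a zinc finger factor of neuroendocrine cells, was higher by 1.52. Those lower included the haematopoietic and sympathetic factors Gata3 and Gata2, at -2.49 and -1.78, and the forebrain factor Lhx2, at -1.74. The proneural factors Neurog2 and Neurod1 were within 2-fold by their brightest probes, with differences of -0.01 and 0.57, though the other probe of Neurod1 was higher. Of 28 progenitor and Notch genes, 2 were higher (7.143%, near the 5.94% of all genes) and 3 lower (10.71%, beside 4.65%). Nes (nestin), the filament of neural progenitors, was at 0.52 at 7 dpi and 2.19 at 5 dpi, and Fabp7 of radial glia had a difference of -2.15.

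Other neuronal groups showed a minority of members past 2-fold. Of 23 neuronal RNA-binding genes, 5 were higher and none lower. Elavl3, a neuronal Hu protein, was at 0.54 at 7 dpi and -3.25 at 5 dpi, after not being well above background at 3 dpi. Srrm4, which drives neural microexon splicing, and Celf3 were higher by 2.63 and 3.42. Of 64 axon guidance and adhesion genes, 12 were higher and 3 lower, with a median of 0.36. Unc5a, a netrin receptor, was higher by 2.90 and Cdh22, a cadherin, by 3.81, while Unc5b, another netrin receptor, had a difference of -2.07. Of 23 neurotrophic factor and receptor genes, 7 were higher and 2 lower, the first including Gfra2 and Ret, the receptor pair of neurturin, at 2.54 and 2.43, and Ngfr at 2.01. Artn, a ligand of the same receptor family, was lower, with a difference of -1.74. Of 18 subunits of the BAF remodelling complex, 2 were higher (11.11%, beside 5.94% of all genes) and 1 lower (5.556%, near 4.65%). Actl6b, the neuron-specific actin-like subunit, was higher by 1.09 and Smarca2, an ATPase subunit, was at 1.64 at 7 dpi and 0.50 at 5 dpi. With normexp, Actl6b lay within 2-fold at 0.51.

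The labels call the Tet3-treated cells neurons, yet several fibroblast genes lay near or above their MEF levels at both times. The median level of the fibroblast list was 3.63 at 7 dpi and 2.97 at 5 dpi, beside 3.58 in MEF, and some members, such as Eln, were well below MEF at 5 dpi. Thy1 and Pdgfrb, surface proteins of fibroblasts, were at 4.91 and 3.98 at 7 dpi, against 5.30 and 3.80 at 5 dpi. Col1a1, the main collagen chain, was at 6.80 at 7 dpi and 6.81 at 5 dpi, beside 6.70 in MEF and 2.21 in neurons. Several matrix genes were higher at 7 dpi. Of 53 fibroblast genes with a difference, 12 were higher and 4 lower, with a median of 0.31. Eln (elastin) had levels of 1.81 in MEF, 1.36 at 1 dpi, -0.43 at 3 dpi, -2.18 at 5 dpi, 0.33 at 7 dpi and -1.59 in neurons. It was 5.69-fold higher at 7 dpi than at 5 dpi. Lum and Ogn, small leucine-rich proteoglycans, were higher by 1.81 and 1.86. Pdgfra, a growth factor receptor that marks fibroblasts, was at 3.46 at 7 dpi and 2.50 at 5 dpi, and Dcn (decorin) at 6.40 at 7 dpi and 5.79 at 5 dpi. The bulk collagens Col1a1, Col1a2 and Col3a1 differed by -0.01, 0.09 and 0.00. Of 37 collagen genes, 8 were higher and 4 lower, among them Col6a1 and Col6a2 at 1.26 and 2.00, and Col14a1 at 2.23. Col10a1, the collagen of hypertrophic cartilage, was at least 15.2-fold lower. The summed level of the fibroblast list, on a linear scale with the 75th percentile of each array at 1, was 1139 at 7 dpi and 901 at 5 dpi, beside 1069 in MEF and 199 in neurons.

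Matrix genes that were lower included Tnc and Has2. Tnc (tenascin C) had levels of -3.20 in MEF, 0.32 at 1 dpi, 0.95 at 3 dpi, 0.36 at 5 dpi, -2.82 at 7 dpi and -2.12 in neurons. Both of its probes were lower at 7 dpi than at 5 dpi, the brighter by 9.06-fold and the other by more. Has2, which makes hyaluronan, was at -0.05 at 7 dpi and 2.14 at 5 dpi. Of 41 matrix protease and inhibitor genes, 4 were higher and 7 lower, with a median of 0.02. Mmp13, a collagenase, was at -5.21 at 7 dpi, against -0.47 at 5 dpi, 26.7-fold lower. Plau, a plasminogen activator, had a difference of -2.33. Of 44 mesenchymal transcription factors, 1 was higher and 5 lower, led by Foxf2 at -2.43.

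Smooth muscle and contractile genes were lower as a group. Of 32 members, none was at least 2-fold higher and 11 were at least 2-fold lower, 29 were below 0, and the median was -0.81. Acta2, the smooth muscle actin of activated fibroblasts, had levels of 4.74 in MEF, 6.11 at 1 dpi, 6.08 at 3 dpi, 6.26 at 5 dpi, 4.66 at 7 dpi and 4.44 in neurons. It was 3.03-fold lower at 7 dpi than at 5 dpi and close to its MEF level. Cnn1 (calponin), which binds actin in contractile cells, was at -0.86 in MEF, 1.40 at 1 dpi, 2.62 at 3 dpi, 1.89 at 5 dpi, -1.59 at 7 dpi and 1.41 in neurons, so it was 11.2-fold lower at 7 dpi than at 5 dpi. Actg2, the enteric smooth muscle actin, was at -0.77 at 7 dpi and 2.71 at 5 dpi, also 11.2-fold lower. Tagln and Myl9, an actin-binding protein and the regulatory myosin light chain of smooth muscle, had differences of -1.61 and -1.93, and Lmod1, an actin nucleator, one of -3.25. The summed level of the list was 216 at 7 dpi and 449 at 5 dpi, against 220 in MEF. Of the 29 members measured at 7 dpi, at 5 dpi and in MEF, 24 were nearer to MEF at 7 dpi than at 5 dpi, against 58.2% of all such genes, and the MEF array comes from another scan.

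Contractile genes are classic targets of serum response factor, which binds the CArG box, and the promoter of Myl9 is shown as the one with this box that was furthest below 0 among the list. The window lies on the plus strand (chr2:156775214-156775513, GRCm38.p6), and the box, in capitals, begins 161 bases before the start.
Myl9: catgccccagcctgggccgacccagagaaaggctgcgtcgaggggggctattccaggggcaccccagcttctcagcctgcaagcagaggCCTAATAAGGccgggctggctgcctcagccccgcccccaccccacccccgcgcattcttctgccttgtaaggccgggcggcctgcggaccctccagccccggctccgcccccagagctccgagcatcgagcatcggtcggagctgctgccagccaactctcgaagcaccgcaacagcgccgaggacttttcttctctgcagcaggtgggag
The box, read alike on both strands, was in 1.63% of all promoters, in 3.69% of genes at least 2-fold lower, in 1.54% of genes at least 2-fold higher and in 1.66% of genes with a difference. Of 28 contractile genes with a promoter, 7 held it in this window, Cnn2, Myl9, Vcl, Srf, Ldb3, Fhl1 and Fhl2.

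Signalling genes of stretch and of the TGF-beta family followed in part. Of 29 genes of YAP and TAZ, the coactivators that respond to stretch and spreading, with their partners and targets, none was higher and 6 were lower, with a median of -0.15 and a mean of -0.52. Ankrd1 was at 0.26 at 7 dpi and 3.27 at 5 dpi, and Ccn2 (CTGF) at 1.76 at 7 dpi and 3.93 at 5 dpi. Ccn1 (CYR61), another standard target, differed by -0.19. Of 58 TGF-beta and BMP genes, 2 were higher and 13 lower. The inhibitors of differentiation Id1, Id2 and Id3, which BMP signals are known to induce, differed by -1.74, -1.17 and -1.59. Inhba, the subunit of activin A, had a difference of -2.55, and Grem1 and Nog, secreted BMP antagonists, were at -2.45 and -1.56. Of 54 Wnt pathway genes, 3 were higher (5.556%, near the 5.94% of all genes) and 7 lower (12.96%, beside 4.65%). Their median was -0.15, with Sfrp2 at 1.63 and Wnt10a at -1.89.

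Genes of striated muscle were in part higher. Of 70 with a difference, 19 were higher and 5 lower, with a median of 0.31. Myl1, the light chain of fast muscle, was at -2.70 in MEF, -0.39 at 1 dpi, -1.20 at 3 dpi, -2.02 at 5 dpi and 1.88 at 7 dpi, and was not well above background in neurons. It was 15.0-fold higher at 7 dpi than at 5 dpi. Myh3, the embryonic myosin, was at 2.14 at 7 dpi and -0.45 at 5 dpi, and the troponins Tnnt3, Tnni2 and Tnnc2 were higher by 2.00, 1.99 and 1.75. Myog, the factor of muscle differentiation, was at -2.40 at 7 dpi and -3.67 at 5 dpi. Myod1, which commits cells to muscle, was within 2-fold at 0.64, with an outlier mark on a spot. Asb5, an ankyrin repeat protein of muscle, and Acta1, the skeletal actin, went the other way, at -3.80 and -1.21.

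Genes of glucose use and of the hypoxia response were lower as a group. Of 48 members, 1 was higher, the collagen hydroxylase gene Plod2 at 1.02, and 12 were lower, 39 were below 0, and the median was -0.64. Slc2a1, the ubiquitous glucose transporter, had levels of 3.07 in MEF, 3.46 at 1 dpi, 4.40 at 3 dpi, 4.82 at 5 dpi, 3.07 at 7 dpi and 3.48 in neurons. It was 3.36-fold lower at 7 dpi than at 5 dpi and stood at its MEF level. Slc16a3, which exports lactate, was at 1.23 at 7 dpi and 3.74 at 5 dpi, 5.69-fold lower. Egln3, an oxygen-sensing hydroxylase that hypoxia induces, was at -2.06 at 7 dpi and 0.57 at 5 dpi, and Hk2 (hexokinase) had a difference of -1.72. The glycolytic enzymes Eno1, Pkm, Pgk1 and Ldha differed by -1.14, -0.99, -0.99 and -0.96, so the first was past 2-fold and the others just short of it. By contrast, none of 76 oxidative phosphorylation genes was past 2-fold, with a median of 0.06, and none of 78 ribosomal protein genes, with a median of -0.13. The summed level of the glycolysis list was 388 at 7 dpi and 653 at 5 dpi, against 397 in MEF.

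Txnip ran opposite to these genes. It encodes an arrestin-like protein that binds thioredoxin and limits glucose uptake, and glucose is known to induce it. Txnip had levels of 2.40 in MEF, 1.59 at 1 dpi, 0.13 at 3 dpi, -2.88 at 5 dpi, 1.38 at 7 dpi and 0.32 in neurons. It was 19.2-fold higher at 7 dpi than at 5 dpi, and its 2 probes were higher by 2.92 and 4.26. A step of 4-fold or more down to 5 dpi was found for 191 genes (1.03%). Txnip is 1 of 9 of these that also had a step of 4-fold or more up to 7 dpi. These consecutive steps share the 5 dpi array. The promoter of Txnip is shown because its known carbohydrate response element lies in the window, on the plus strand (chr3:96557707-96558006, GRCm38.p6), beginning 85 bases before the start. It was searched on both strands as CACGNGNNNNNCNCGNG, where N is any base, and is in capitals.
Txnip: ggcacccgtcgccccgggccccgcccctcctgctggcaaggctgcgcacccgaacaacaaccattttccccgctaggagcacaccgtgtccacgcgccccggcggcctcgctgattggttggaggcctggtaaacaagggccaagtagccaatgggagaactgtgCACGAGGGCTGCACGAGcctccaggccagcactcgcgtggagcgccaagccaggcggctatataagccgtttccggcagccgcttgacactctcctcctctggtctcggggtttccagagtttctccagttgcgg
This pattern was in 0.365% of all promoters, in 0.770% of genes at least 2-fold higher, in 0.962% of genes at least 2-fold lower and in 0.672% of genes with a difference. Of 28 oxidative stress and metal response genes, Txnip included, 3 were higher (10.71%) and 1 lower (3.571%). The shares of all genes were 5.94% and 4.65%. The median of the list was -0.06 and its mean 0.18. Hmox1 (haem oxygenase) differed by -0.92.

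**Figure D4:**
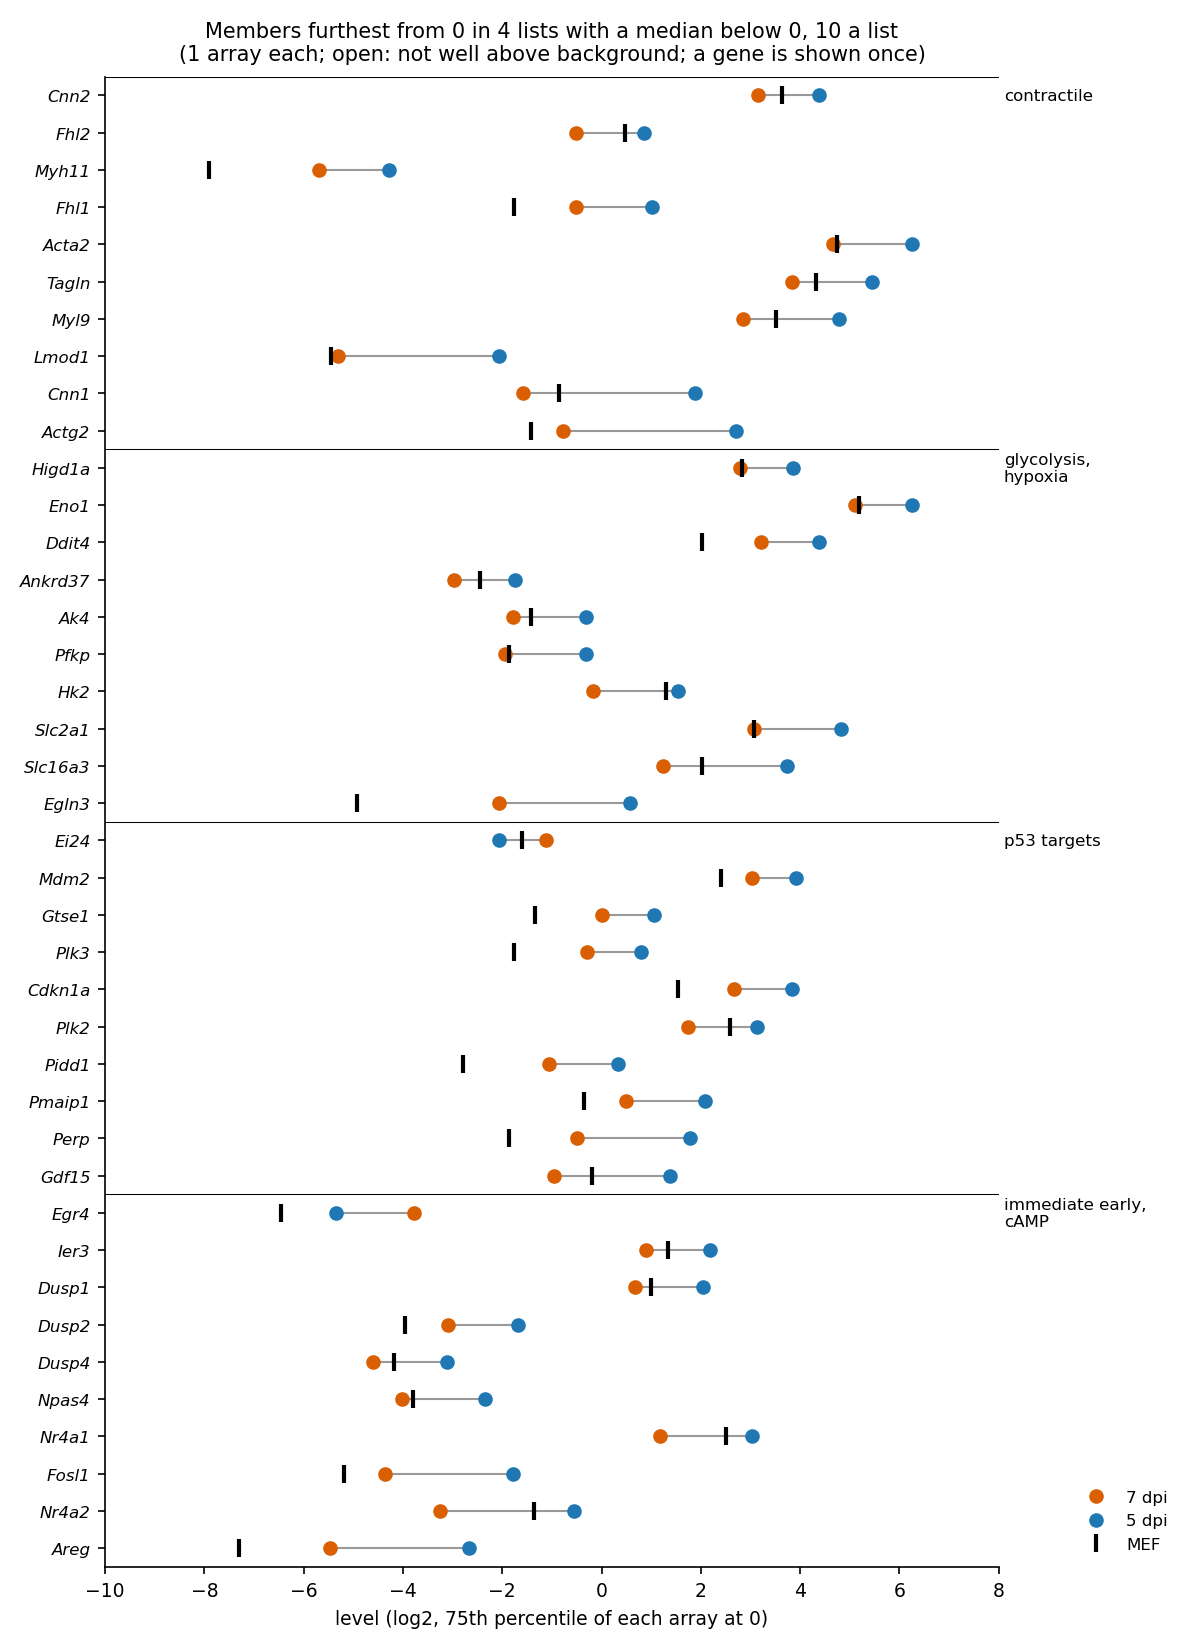
Levels (x axis, log2 with the 75th percentile of each array at 0) of the members furthest from 0 in the contractile, glycolysis and hypoxia, p53 and immediate early lists, at 7 dpi (orange), at 5 dpi (blue) and in MEF (black tick, drawn whether or not above background). Except for Ei24 and Egr4, 7 dpi lies to the left of 5 dpi, and for Slc2a1 at 3.07 and Acta2 at 4.66 the 7 dpi point lies on or next to the MEF tick.

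Stress and growth arrest genes were lower too. Of 35 p53 target and arrest genes, none was higher and 9 were lower, with a median of -0.54. Cdkn1a, the p21 inhibitor of the cell cycle, was at 2.66 at 7 dpi and 3.83 at 5 dpi, with both probes lower and an outlier mark on a spot. Gdf15, a stress cytokine, was at -0.96 at 7 dpi and 1.38 at 5 dpi, and Perp, a p53 target of cell death and adhesion, at -0.49 at 7 dpi and 1.79 at 5 dpi. Trp53 itself differed by 0.10. Of 47 genes of the unfolded protein and amino acid responses, none was higher and 5 were lower, and 40 were below 0, with a median of -0.37. Cell cycle genes were not higher in turn. Of 80, none was higher and 3 were lower (3.75%, beside 4.65% of all genes), Rrm2, Aurka and Ube2c. Their median was -0.29. Mki67, the proliferation antigen, was at 1.71 at 7 dpi and 1.63 at 5 dpi.

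Immediate early and cAMP-responsive genes were lower at 7 dpi. Of 47 with a difference, 1 was higher and 10 were lower, with a median of -0.49. Nr4a1 and Nr4a2, orphan receptors that cAMP induces within minutes to hours, had differences of -1.85 and -2.71. Areg, an EGF receptor ligand, was at -5.48 at 7 dpi and -2.66 at 5 dpi. Fosl1, a subunit of AP-1, had a difference of -2.58 and Npas4, an activity-dependent factor, one of -1.68. Fos was at 0.47 at 7 dpi and 0.96 at 5 dpi, within 2-fold. Egr4 was the member that was higher, at -3.79 at 7 dpi and -5.34 at 5 dpi. With normexp, Egr4 lay within 2-fold at 0.80. The granule genes Chgb, Scg2 and Vgf lay above 0, and Nr4a1, Nr4a2, Areg, Fosl1 and Npas4 below it. Neither list lay on 1 side: 3 of 17 granule genes were below 0, and 9 of these 47 genes were above it.

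Inflammatory genes split into members that were much lower and members that were higher. Of 51 with a difference, 14 were lower and 7 higher, with a median of -0.24. Cxcl3, a chemokine that attracts neutrophils, was not well above background in MEF and then had levels of -5.71 at 1 dpi, -3.93 at 3 dpi and -0.34 at 5 dpi, and it was not well above background at 7 dpi or in neurons. It was at least 52.98-fold lower at 7 dpi than at 5 dpi. Ptgs2, the inducible cyclooxygenase, was at -3.62 in MEF, -3.37 at 1 dpi, 1.19 at 3 dpi, 1.09 at 5 dpi, -3.31 at 7 dpi and -3.97 in neurons, and was 21.02-fold lower. Il6 was at 0.37 at 7 dpi and 3.10 at 5 dpi, 6.62-fold lower, Cxcl1 was at -1.19 and Cxcl2 was at least 6.16-fold lower. C3, the central complement component, was at 5.61 at 7 dpi and 2.75 at 5 dpi, 7.25-fold higher. Saa3, an acute phase protein, and Il33, a nuclear alarmin of stromal cells, were higher by 1.57 and 2.31. Of 50 interferon-stimulated genes, none was higher and 5 were lower, with a median of -0.20, and of 31 antigen presentation genes 1 was higher and 6 were lower, with a median of -0.40. The class I genes share long stretches of sequence, so their signal cannot be fully assigned to single genes.

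The promoter of Mmp13 is shown as that of the gene furthest below 0 among the named genes measured on both arrays. Its window on the plus strand (chr9:7272264-7272563, GRCm38.p6) holds the known AP-1 element, TGACTCA, in capitals, beginning 35 bases before the start.
Mmp13: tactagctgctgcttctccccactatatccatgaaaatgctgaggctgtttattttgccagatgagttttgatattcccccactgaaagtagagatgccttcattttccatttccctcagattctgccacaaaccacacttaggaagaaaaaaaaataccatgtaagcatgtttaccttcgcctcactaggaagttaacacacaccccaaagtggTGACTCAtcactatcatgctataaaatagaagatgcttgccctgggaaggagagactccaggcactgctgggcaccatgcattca
This element was searched on both strands and was in 8.81% of genes at least 2-fold lower, in 5.78% of genes at least 2-fold higher, in 5.12% of genes with a difference and in 5.20% of all promoters. It was in 8 of 25 protease genes with a promoter and in 7 of 38 inflammatory genes, including Il6, Il11 and Lif.

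Macrophages are a cell type that embryonic fibroblast cultures can hold, and their genes were lower as a group. Of 26 with a difference, none was higher and 11 were lower, with a median of -0.85. The summed level of the list was 13.3 at 7 dpi and 18.8 at 5 dpi, against 488 in MEF. At 7 dpi the sum rests largely on its brightest members, Itgam at 2.56 and Csf1r, beside 3.34 and -0.07 in MEF. Mrc1, the mannose receptor, had levels of 4.81 in MEF, 1.09 at 1 dpi, -2.41 at 3 dpi and -4.33 at 5 dpi, and was not well above background at 7 dpi, nor were Stab1, F13a1 and Pf4. Csf1r, the receptor for the macrophage growth factor, was at 1.55 at 7 dpi and 1.29 at 5 dpi, and C1qb, a complement subunit, at -2.07 at 7 dpi and -2.31 at 5 dpi. Ctss, a lysosomal protease of phagocytes, was at -3.07 at 7 dpi and -0.86 at 5 dpi. The chemokines Ccl3, Ccl6 and Ccl9, which macrophages make, had differences of -2.05, -2.78 and -1.95 beside the macrophage list. The part of these cells in the inflammatory differences was not tested.

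Lipid and imprinted genes leaned upward. Of 43 cholesterol and lipid genes, 8 were higher and 1 was lower, and 36 were above 0, with a median of 0.55. Idi1, Sqle, Cyp51 and Dhcr7, enzymes of sterol synthesis, were higher by 1.17, 1.00, 1.02 and 1.08. With normexp, Cyp51 and Dhcr7 lay within 2-fold, at 0.88 for each, and Idi1 stayed past it at 1.13. Apoe was at 3.26 at 7 dpi and 1.73 at 5 dpi, beside 6.96 in MEF, and Abcg1, a sterol exporter, was the member that was lower, at -1.34. Of 26 imprinted genes, 7 were higher and 2 lower, with a median of 0.59. Dlk1, a Notch-like ligand of embryonic mesenchyme, was at 6.13 in MEF, 5.67 at 1 dpi, 3.65 at 3 dpi, 3.94 at 5 dpi, 5.99 at 7 dpi and -2.34 in neurons, so it was 4.14-fold higher at 7 dpi than at 5 dpi and near its MEF level. Nnat (neuronatin), Mest and Plagl1 were higher by 2.17, 1.33 and 1.16, and Peg10 was lower, at -1.34. Of 12 adipocyte genes, 5 were higher and 1 was lower, with a summed level of 43.7 at 7 dpi and 23.4 at 5 dpi. That sum rests largely on the brightest member, Lpl, at 5.19 at 7 dpi and 3.74 at 5 dpi, beside 4.585 in MEF. Cfd (adipsin) and Adipoq (adiponectin) were well above background at 7 dpi but not at 5 dpi, at least 7.61-fold and 2.64-fold higher, whereas Fabp4, the fatty acid binder of fat cells, was at 0.12 at 7 dpi and 2.11 at 5 dpi. With normexp, Adipoq lay within 2-fold at 0.50 and Cfd was at 1.35.

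Most lists of other cell types held few called members. These are to be read beside all genes, of which 5.94% were higher and 4.65% lower. Of 17 astrocyte and radial glia genes with a difference, 2 were higher (11.76%) and 3 lower (17.65%). Their summed level was 10.4 at 7 dpi and 12.3 at 5 dpi, against 178 in neurons. Gfap was at -4.48 at 7 dpi and -4.46 at 5 dpi, and Mlc1 was not well above background on either. Of 14 oligodendrocyte genes 1 was higher (7.143%) and 2 lower (14.29%), at -1.07 and -1.17. The higher one was Mbp, whose 3 probes disagreed between -0.42 and 1.97. Of 14 Schwann cell and crest genes 1 was higher (7.143%) and 2 lower (14.29%), and of 13 endothelial genes 1 each way (7.692%). Of 18 epithelial genes 1 was higher (5.556%) and 3 lower (16.67%), and of 11 blood genes 1 each way (9.091%). Of 37 lysosome and autophagy genes 1 was higher (2.703%) and 1 lower (2.703%), Gpnmb at -2.33. Epcam and Cdh1, which define epithelia, were not well above background on either array. Of 16 cartilage and bone genes 2 were higher (12.5%) and 6 lower (37.5%), with Spp1 (osteopontin) at -2.62.

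Of the other genes far from 0, those named here fell outside the lists, except for Ppbp of the blood list. Above 0 stood Rab6b, a neuronal vesicle traffic GTPase, at 1.75 at 7 dpi and -3.63 at 5 dpi, 41.7-fold higher. Lrrc4b, a synaptic adhesion protein, and Slc44a5, a choline transporter family member, were 22.6-fold and 27.6-fold higher, and Fstl5 and Igfbpl1 were at least 41.04-fold and 31.2-fold higher. All of these had higher levels on the neuron array than at 7 dpi. Below 0 stood Pla2g7, a phospholipase known from macrophages and brain, with levels of 4.09 in MEF, 2.15 at 1 dpi, 0.66 at 3 dpi, 3.83 at 5 dpi, -0.90 at 7 dpi and 4.16 in neurons, 26.4-fold lower at 7 dpi than at 5 dpi. Glipr1 was 24.3-fold lower, the platelet chemokine gene Ppbp 15.8-fold, Tnfsf11 (RANKL) 14.1-fold, the mast cell and basophil protease gene Mcpt8 12.2-fold and Mogat2, of fat synthesis, had a difference of -3.46. Ndufa4l2, a mitochondrial protein that hypoxia induces, and Ppp1r14a, a phosphatase inhibitor of smooth muscle, were 10.4-fold and 9.91-fold lower.

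Several of the genes furthest above 0 belong to families of liver, pancreas and gut and to no neuronal list. Reg1, a secreted lectin of pancreas, was at 1.32 in MEF, 1.23 at 1 dpi, -5.14 at 3 dpi, -2.02 at 5 dpi, 3.50 at 7 dpi and -4.33 in neurons, 46.0-fold higher at 7 dpi than at 5 dpi. Its relatives Reg2 and Reg3g were 28.4-fold and 13.7-fold higher. Akr1c14 and Akr1c19, hydroxysteroid and related dehydrogenases, were 32.5-fold and at least 36.0-fold higher. The major urinary protein genes Mup3, Mup6, Mup17, Mup18 and Mup20, lipocalins made by liver, were between 25.6-fold and 32.0-fold higher, but they are near-identical copies and their probes cannot be taken as separate genes. A step of 4-fold or more up to 5 dpi was found for 398 genes (2.15%), and 37 had it again up to 7 dpi, Mup17, Mup18, Reg1, Reg3g and C3 among them. The neuronal genes Elavl3 and Nsg2 were among these 37 as well.

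Genes with a peak at 5 dpi were a further set: 34 genes had a step of 4-fold or more up to 5 dpi and 4-fold or more down to 7 dpi, with the 5 dpi array shared. Besides Cxcl3, Asb5 and Pla2g7, they included genes of placenta and of keratinised epithelia. Prl8a9, a prolactin-family gene of placenta, was at -6.28 in MEF, -3.60 at 1 dpi, -5.00 at 3 dpi, -0.78 at 5 dpi and -4.72 at 7 dpi, and was not well above background in neurons. Its relative Prl8a6 was at -4.59 at 7 dpi and -1.56 at 5 dpi, and Plac1, a trophoblast gene, at -4.31 at 7 dpi and -1.31 at 5 dpi. Krt23, a keratin, was well above background at 5 and 7 dpi and on none of the other arrays, and was 9.70-fold lower at 7 dpi. Sprr2g, of a family of cornified envelope genes, was at least 10.8-fold lower. The families of Prl8 and Sprr2 genes are near-identical in parts, so their probes may share signal. At 4-fold, 8 genes went down in both steps, among them the myeloid genes Lilrb4a, Ctss and Cd300c2.

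**Figure D5:**
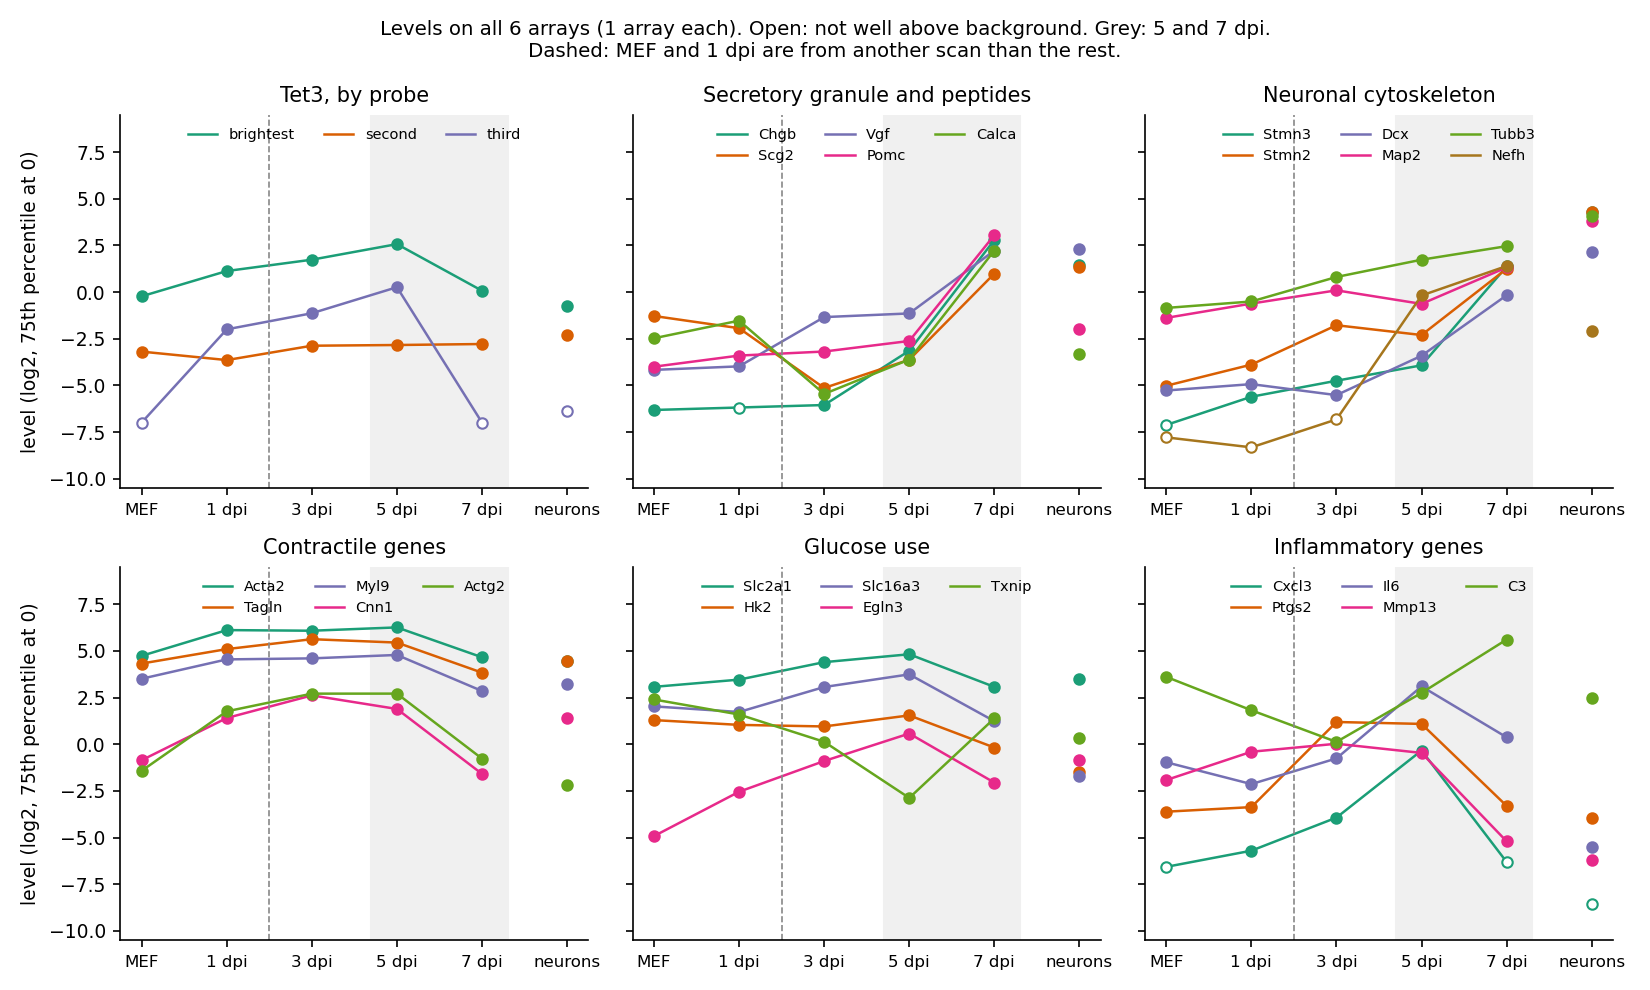
Levels on all 6 arrays (y axis, log2 with the 75th percentile of each array at 0) of the Tet3 probes and of genes from 5 groups, with open points where a probe was not well above background, the 5 and 7 dpi arrays shaded and a dashed line between scans. The Tet3 probes other than the flat one, the contractile genes, Slc2a1 and Il6 are lower at 7 dpi than at 5 dpi, while granule and cytoskeleton genes and Txnip are higher, as with Chgb at 2.79 and -3.14.

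The step was set against the MEF and neuron arrays last. Of 667 genes lower at 7 dpi that were measured on both arrays and in MEF, 484 (72.6%) were nearer to their MEF level at 7 dpi than at 5 dpi, and 392 lay within 2-fold of MEF at 7 dpi against 157 at 5 dpi. Of 802 genes higher at 7 dpi, 320 (39.9%) were nearer to MEF at 7 dpi. Over all 16245 genes measured on the 3 arrays the share was 58.2%. Towards neurons, 580 of 890 genes higher at 7 dpi (65.2%) and 374 of 682 genes lower (54.8%) were nearer at 7 dpi than at 5 dpi, against 54.8% of all. All of these shares use the 5 and 7 dpi arrays that also chose the genes, so they describe the step and are no test of it. Among the lists, p53 targets had 27 of 35 nearer to MEF at 7 dpi, cell cycle genes with 65 of 78 and contractile genes with 24 of 29, against 10 of 37 for synaptic vesicle genes and 5 of 15 for granule genes.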

How the data were processed

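RNA of 6 samples was hybridised to 1 Cy3-labelled Agilent mouse array each, and 2 of them are compared here. Per the submitters' processing notes, the deposited intensity files came from Agilent Feature Extraction 11.0.1.1. The series table deposited by the authors holds log2 values with the 75th percentile of each array at 0, and the sources used here do not name the software that made it. It correlated with log2 of the scanner files' background-corrected signals at r = 0.99999 for both arrays. That percentile was a signal of 1811 at 7 dpi and 1648 at 5 dpi, and the column medians of the table were -2.86 at 7 dpi and -2.90 at 5 dpi. No spot was saturated, and 129 spots at 7 dpi and 136 at 5 dpi carried an outlier mark.

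The 7 dpi column minus the 5 dpi column was computed with pandas 2.3.3. A difference is measured where both arrays are well above background by the scanner flag. Where only 1 is, a bound takes, for the dim array, the higher of its lowest level well above background and the probe's own. Where that bound is 0 or less no fold is given (511 genes). Symbols came from the array's accessions through RefSeq (GRCm38.p6), for 69.1% of probes. The probe with the higher mean stood for each of 5474 genes with several. No test was possible with 1 array a group.

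Genes named are the 20 furthest each way without an outlier spot or a predicted gene's name, the Tet probes, up to 10 genes that turned at 4-fold between consecutive steps in each pattern, and members of 49 lists. Genes that continued in both steps, such as Nsg2 and Cd300c2, were chosen after their values were seen. Members and lists were chosen with earlier results of these data known. The calling was tested on simulated data. Alternatives were the scanner signal, normexp with an offset of 50 on median signals (limma 3.58.1), quantile normalization, median centring, other filters, bounds and summaries, and a 4-fold threshold.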

Additional observations from a re-analysis of the deposited data

How the results depend on the processing

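No paired analysis was possible because each group has 1 array. In 10 alternatives and 1 added after seeing the data, a mean level of -3 or more, no called value changed sign. Of 38 counts 23 stayed within 1.5 times, as did 469 of 490 list values and 3278 of 3586 gene values within their error. Normexp alone moved 210 of 417 gene values beyond it, and 57 of 227 higher and 42 of 190 lower calls ended. Genes at least 2-fold higher were 646 with normexp, 306 at 4-fold and 567 at the level minimum. Genes at least 2-fold lower were 474, 143 and 448 there, and 1459 with no filter on dim probes. Probes higher were 875 with normexp, 445 at 4-fold and 732 at the level minimum, and probes lower 692, 205 and 651. Probes lower were 2902 with no filter and 2359 with the table value in place of the bound. The share of called genes that were higher was 56.08% as reported, 45.9% with no filter, 46.89% with the table value in place of the bound and 68.15% at 4-fold. The cause was not tested. Normexp moved the medians of synaptic vesicle genes to 0.37, granule genes to 1.68, REST targets to 0.96 and macrophage genes to -0.48. The mean over probes gave 2.20 for granule genes. At the level minimum, medians were 0.32 for synaptic vesicle genes, 0.14 for channels, 0.10 for striated muscle and 0.20 for adipocyte genes. The mean over members in place of the median was 1.31 for the neuronal cytoskeleton, 0.82 for synaptic vesicles, 2.25 for granules, 0.55 for neuropeptides, 0.10 for neuronal transcription factors, 0.73 for RNA binding, 1.54 for REST targets, 0.62 for channels, 0.53 for receptors, 0.35 for transmitter identity, -0.52 for YAP genes and 0.18 for oxidative stress. Mean and median differ in sign for neuropeptides, neuronal transcription factors and oxidative stress. Signal over background limits dim genes, of which fewer were seen at 7 dpi.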
